A study of Mus musculus with 16 samples.

Results

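Lung liquid is moved by a small set of epithelial proteins, and the mRNAs of 8 of them were followed here in alveolar epithelial type II (AT2) cells of newborn mice. The set was taken by name: the 3 subunits of the epithelial sodium channel ENaC (Scnn1a, Scnn1b and Scnn1g), the Na,K-ATPase beta subunit Atp1b1, the chloride channels Cftr and Clcn2, the chloride-importing cotransporter Slc12a2, and Nedd4l, a ubiquitin ligase that removes ENaC from the membrane. All 8 of 8 were measured, among 20725 genes, by 10 of the 31439 array features with a gene name. Clcn2 and Nedd4l had 2 features each, and the feature with the highest mean over the 16 samples stands for the gene. Scnn1a, Scnn1b, Scnn1g and Atp1b1 belong to the absorptive side, while Slc12a2, Cftr and Clcn2 are better known for chloride secretion. Nedd4l is neither a channel nor a pump.

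Before birth the lung epithelium secretes chloride and fills the airspaces with liquid. Around birth it turns to absorption: sodium enters through ENaC at the apical membrane and is pumped out at the basolateral side by the Na,K-ATPase, and water follows. AT2 cells, the surfactant-making cells of the alveolus, carry ENaC and the pump, and loss of the alpha subunit of ENaC is lethal to newborn mice because their lungs do not clear liquid.

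All samples were AT2 cells of pups at postnatal day 3, labelled with Cy3 on single-colour Agilent arrays. The groups, by the sample titles, were wild-type pups kept in normoxia (n = 4), wild-type pups exposed to 85% oxygen from day 0 to day 3 (n = 6), pups heterozygous for Fgf10 (Fgf10+/-) in normoxia (n = 4), and Fgf10+/- pups under the same oxygen exposure (n = 2). Fgf10 is a growth factor that the lung mesenchyme sends to the epithelium, and oxygen exposure of newborn mice serves to model the lung disease of preterm infants, bronchopulmonary dysplasia. The series text gives 4 samples per group instead, and the titles were followed. No source used here says whether a sample is 1 pup, a pool of pups or a repeat, so p-values measure the spread between these samples, which may be technical. How the cells were purified was not given in the sources used here, nor was the mouse strain.

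The deposited values are normalized log2 intensities and ran from -0.4 to 15.98 with a median of 4.34. A difference of 1 is a doubling, except near the lower end, where background compresses differences. The brightness of different features depends on the probe, so levels are compared between samples of 1 gene, and a rank among genes only says how far a feature stands above the dim end. Defining AT2 genes were bright on every array (Sftpc 15.95 to 15.98, at the top of the scale, Lamp3 11.28 to 12.70). Genes of other cells were present too: the mean of 7 club and secretory cell markers ran from 9.61 to 13.94 and that of 7 smooth muscle and pericyte markers from 6.14 to 9.26. Among the club markers Scgb1a1 (15.13 to 15.98) and Cbr2 (14.75 to 15.97) also reached the top of the scale, while Bpifa1 ran from 2.60 to 9.39. The Fgf10 feature was dim, at 4.27 to 5.89 in wild-type normoxia, 4.71 to 5.45 in wild-type hyperoxia, 4.02 to 4.77 in Fgf10+/- normoxia and 4.76 to 5.38 in Fgf10+/- hyperoxia, and cannot serve as a check of genotype.

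The promoters of 3 members are shown because they belong to genes with very different signals here: the neighbours Scnn1g and Scnn1b on chromosome 7, whose start sites lie 131 kb apart with 0 protein-coding genes between them, one dim and the other well above the dim end, and Atp1b1, the member with the brightest feature. Each is the 250 bases before the start site, 5′ to 3′ on the gene's strand, from RefSeq on GRCm38.p6. The places are chr7:121734229-121734478 (plus strand) for Scnn1g, chr7:121864788-121865037 (plus strand) for Scnn1b and chr1:164458356-164458605 (minus strand) for Atp1b1. Capitals mark matches, on either strand, to the TATA box TATAAA, the box named after its letters CCAAT, the GC box GGGCGG, the cAMP response element TGACGTCA or the glucocorticoid response element half-site AGAACA. No match of 1 motif overlapped another motif in these stretches.
Scnn1g: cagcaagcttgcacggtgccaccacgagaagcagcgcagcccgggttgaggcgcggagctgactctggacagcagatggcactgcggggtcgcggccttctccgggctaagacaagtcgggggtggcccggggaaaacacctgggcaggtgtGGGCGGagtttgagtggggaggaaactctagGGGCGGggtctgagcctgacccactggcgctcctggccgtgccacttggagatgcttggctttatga
Scnn1b: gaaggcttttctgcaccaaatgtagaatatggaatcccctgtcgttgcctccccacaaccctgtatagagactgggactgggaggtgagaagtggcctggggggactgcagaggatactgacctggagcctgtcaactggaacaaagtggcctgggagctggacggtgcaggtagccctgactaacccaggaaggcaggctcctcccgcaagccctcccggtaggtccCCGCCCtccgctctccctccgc
Atp1b1: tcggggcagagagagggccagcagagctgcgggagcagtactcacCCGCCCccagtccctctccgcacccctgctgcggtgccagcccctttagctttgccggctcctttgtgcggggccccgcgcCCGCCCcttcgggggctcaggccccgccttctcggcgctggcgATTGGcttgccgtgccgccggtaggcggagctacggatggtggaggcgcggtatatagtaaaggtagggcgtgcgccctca

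The GGGCGG box was found 2 times upstream of Scnn1g, 1 time upstream of Scnn1b and 2 times upstream of Atp1b1, and 32.7% of all 32851 promoters of that length in the table hold it. Atp1b1 also had 1 CCAAT match, which 33.8% of promoters hold. None of the 3 held TATAAA, TGACGTCA or AGAACA, which occur in 12.4%, 1.55% and 16.1% of promoters. Guanine and cytosine made up 65.2% of the Scnn1g stretch, 60.8% of the Scnn1b stretch and 70.4% of the Atp1b1 stretch, against a median of 52.4% over all promoters. The dim Scnn1g and its neighbour Scnn1b both held the GGGCGG box and none of the other motifs searched. They differed in the count of the dinucleotide CG, 16 for Scnn1g and 7 for Scnn1b, beside a median of 6 over all promoters. Of all promoters, 74.6% had fewer than Scnn1g and 53.7% fewer than Scnn1b. Whether this bears on their signals was not tested.

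No member passed the test for any effect of oxygen or genotype. With limma and Benjamini-Hochberg adjustment over all genes, 0 of 8 members had an adjusted p under 0.05 for hyperoxia in wild type, where 3.13% of all genes did, or for hyperoxia in Fgf10+/-, where 2.45% did. Among genes with a mean over 7, as 5 of the members had, the shares were 6.47% and 4.7%. The count was also 0 of 8 for Fgf10+/- against wild type in normoxia (0.00965% of all genes), for the same contrast in hyperoxia (0% of all genes) and for the interaction of genotype and hyperoxia (0.00965%). At an unadjusted p under 0.05 the count was again 0 of 8 in each of these 5 comparisons, against 18.2%, 16.7%, 6.03%, 4.37% and 4.11% of all genes. The groups of every member overlapped in each of the 4 comparisons between groups, whereas 7.16%, 25.9%, 3.46% and 6.99% of all genes had groups that did not. In such bulk samples, fewer cells of a type and less RNA per cell cannot be told apart.

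The median change of the 8 members was 0.05 (log2) for hyperoxia in wild type and 0.17 in Fgf10+/-, beside -0.08 and -0.04 over all genes. For genotype it was 0.19 in normoxia and -0.08 in hyperoxia, beside -0.01 and 0.02. The intervals stayed wide. In wild type, the 95% interval for Scnn1a allowed a fall to 0.355 times the normoxia level, and in Fgf10+/- it allowed a fall to 0.292 times, so these arrays leave room for a fall of that size.

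**Figure D1:**
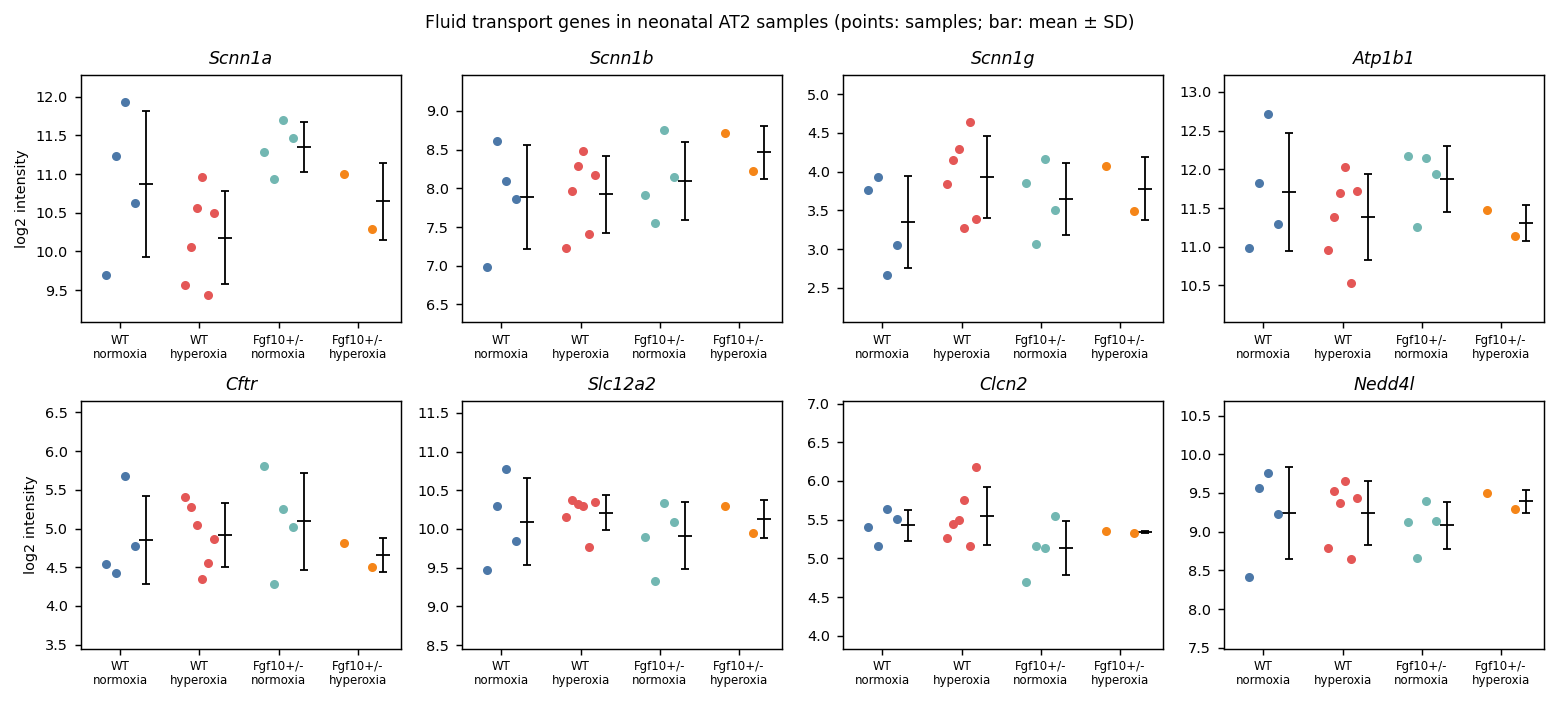
The log2 intensity of each of the 8 genes (vertical axis) in the 4 groups; points are samples and the bar with whiskers is the mean ± SD. Scnn1a, Atp1b1, Slc12a2, Nedd4l and Scnn1b lie at 6.99 or above in all samples, Cftr and Clcn2 between 4.29 and 6.18 and Scnn1g between 2.67 and 4.64, and the groups overlap in every panel.

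Scnn1a encodes the alpha subunit, without which ENaC conducts little current. In wild-type normoxia its log2 value was 9.70, 11.23, 11.93 and 10.62 in replicates 1 to 4, and in wild-type hyperoxia it ran from 9.44 to 10.96 with a median of 10.27. In Fgf10+/- normoxia the values were 11.29, 10.93, 11.70 and 11.46, and in Fgf10+/- hyperoxia 11.00 and 10.29. The means of both hyperoxia groups lay below those of their normoxia groups, but wild-type normoxia replicates 1 and 4 lay within the range of wild-type hyperoxia and Fgf10+/- hyperoxia replicate 1 just above the lowest sample of its normoxia group. The group means fell in the order Fgf10+/- normoxia (11.34 ± 0.32, SD), wild-type normoxia (10.87 ± 0.95), Fgf10+/- hyperoxia (10.65 ± 0.51) and wild-type hyperoxia (10.18 ± 0.60), and the ranges of neighbours in that order overlapped.

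The Scnn1a difference between hyperoxia and normoxia was -0.69 in wild type (limma SE 0.38, 95% interval -1.50 to 0.11, adjusted p = 0.359) and -0.70 in Fgf10+/- (SE 0.51, interval -1.78 to 0.38, adjusted p = 0.542). The interaction was -0.01 with an interval of -1.35 to 1.34. Averaged over both genotypes, in a contrast added with the data in view, the difference was -0.69 (SE 0.32, interval -1.37 to -0.02, limma adjusted p = 0.179), or 1.62-fold lower. That contrast called 2302 genes (11.1% of all, and 19.5% of the 5982 genes with a mean over 7) and 0 of the 8 members. At an unadjusted p under 0.05 stood 1 of 8 members, Scnn1a, beside 25.8% of all genes. The genotype contrast averaged over both oxygen conditions called 0% of all genes and 0 members, and 5.75% of all genes and 0 members had an unadjusted p under 0.05. Between genotypes Scnn1a differed by 0.47 in normoxia (interval -0.41 to 1.35) and by 0.47 in hyperoxia (interval -0.55 to 1.48).

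Scnn1b encodes the beta subunit, which carries a motif that Nedd4l binds. Its values were 6.99, 8.61, 8.09 and 7.86 in wild-type normoxia, 7.23 to 8.48 with a median of 8.06 in wild-type hyperoxia, 7.92, 7.55, 8.75 and 8.14 in Fgf10+/- normoxia, and 8.71 and 8.22 in Fgf10+/- hyperoxia. The Fgf10+/- hyperoxia pair lay within the range of the other groups, near its upper end. The hyperoxia difference was 0.04 in wild type (interval -0.65 to 0.72) and 0.37 in Fgf10+/- (interval -0.54 to 1.29), with limma adjusted p of 0.971 and 0.724. Between genotypes Scnn1b differed by 0.20 in normoxia and 0.54 in hyperoxia, with intervals of -0.55 to 0.95 and -0.32 to 1.40.

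Scnn1g, the gene of the gamma subunit, was dim on every array. Its values were 3.76, 3.93, 2.67 and 3.05 in wild-type normoxia, 3.27 to 4.64 with a median of 4.00 in wild-type hyperoxia, 3.85, 3.07, 4.16 and 3.51 in Fgf10+/- normoxia, and 4.07 and 3.49 in Fgf10+/- hyperoxia. Its mean stood above that of 8.3% of genes, with 80.7% for Scnn1b and 95.7% for Scnn1a. No detection call came with the values, so whether the Scnn1g feature measured any transcript is not known. The wild-type hyperoxia difference of 0.58 (interval -0.09 to 1.25, limma adjusted p = 0.354) lay within that dim range.

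Atp1b1, the beta subunit that carries the Na,K-ATPase to the membrane, had the brightest feature, with a mean above that of 97.6% of genes. It read 10.99, 11.83, 12.72 and 11.29 in wild-type normoxia and 10.53 to 12.03 (median 11.54) in wild-type hyperoxia. In Fgf10+/- it read 12.17, 11.26, 12.15 and 11.94 in normoxia and 11.47 and 11.14 in hyperoxia. In wild type the medians of the groups nearly coincided (11.56 in normoxia), while both Fgf10+/- hyperoxia samples lay below 3 of the 4 normoxia samples. The difference was -0.33 in wild type (interval -1.04 to 0.39) and -0.58 in Fgf10+/- (interval -1.53 to 0.38), with limma adjusted p of 0.665 and 0.572. Between genotypes it was 0.17 in normoxia and -0.08 in hyperoxia. The alpha subunits of the pump were not analysed here.

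Slc12a2, the cotransporter that loads epithelial cells with chloride for secretion, had overlapping values in all groups. It read 9.47, 10.29, 10.78 and 9.84 in wild-type normoxia, 9.77 to 10.37 (median 10.31) in wild-type hyperoxia, 9.89, 9.33, 10.34 and 10.09 in Fgf10+/- normoxia, and 10.30 and 9.95 in Fgf10+/- hyperoxia. The ranges lay on top of each other. The hyperoxia difference was 0.11 in wild type and 0.21 in Fgf10+/-, with intervals of -0.41 to 0.64 and -0.49 to 0.92. In wild type these bounds correspond to 0.751 and 1.56 times the normoxia level, the narrowest range among the bright members.

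The secretory channels were both dim. Cftr, the cAMP-gated chloride channel, ran from 4.43 to 5.68 in wild-type normoxia, 4.35 to 5.41 in wild-type hyperoxia, 4.29 to 5.81 in Fgf10+/- normoxia, and read 4.81 and 4.50 in Fgf10+/- hyperoxia. Clcn2, a chloride channel linked to fetal lung liquid secretion, ran from 4.69 to 6.18 over all samples on its chosen feature and from 3.35 to 5.30 on the other. Neither gene separated any groups. For hyperoxia the chosen Clcn2 feature differed by 0.12 in wild type and 0.20 in Fgf10+/-, and the other by -0.36 and -0.04. The features did not share a sign, and neither passed the test (limma adjusted p between 0.599 and 0.982 over these values). Cftr is abundant in pulmonary ionocytes, a rare airway cell. Of the 6 ionocyte markers, Foxi1 (3.69 to 4.63), Ascl3 (3.90 to 5.23), Atp6v1g3 (3.10 to 4.97) and Stap1 (3.01 to 5.70) were dim as well, while Atp6v0d2 ran from 3.89 to 8.06 and Atp6v1c2 from 7.56 to 9.80.

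Nedd4l was clearly above the dim end on 1 of its features. That feature read 8.42, 9.57, 9.76 and 9.23 in wild-type normoxia, 8.65 to 9.65 (median 9.41) in wild-type hyperoxia, 9.12, 8.66, 9.40 and 9.14 in Fgf10+/- normoxia, and 9.50 and 9.29 in Fgf10+/- hyperoxia. The other feature ran from 4.05 to 5.56. The chosen feature differed by -0.01 between hyperoxia and normoxia in wild type (interval -0.58 to 0.56) and by 0.32 in Fgf10+/- (interval -0.44 to 1.08). The dim feature gave -0.60 and -0.28, so the features did not share a sign in Fgf10+/-, and neither passed the test (limma adjusted p between 0.296 and 0.992 over the 4 values).

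**Figure D2:**
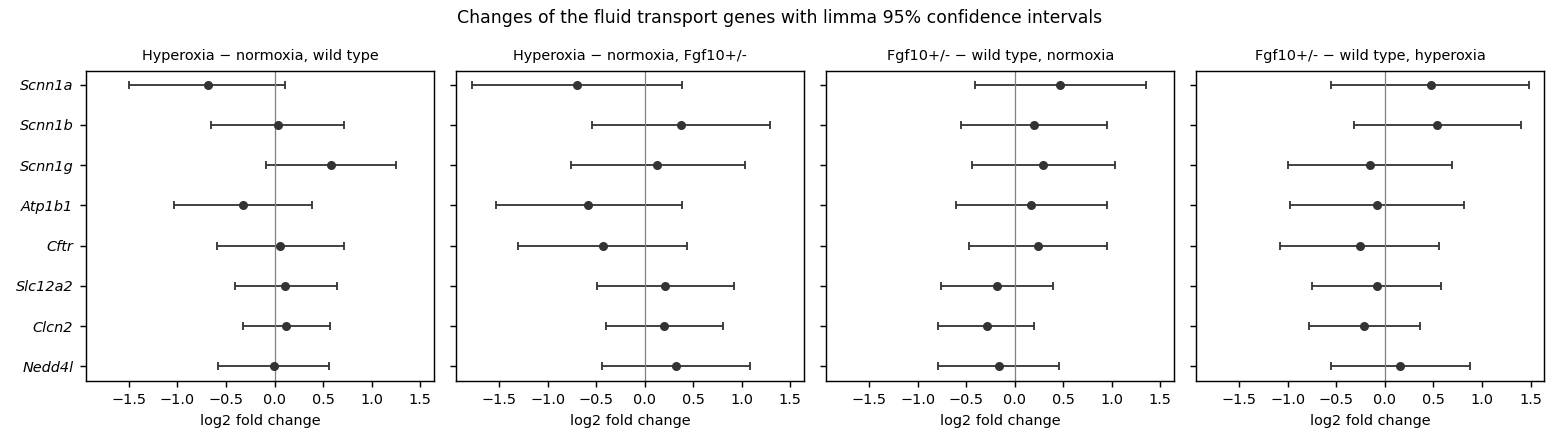
Log2 fold changes of the 8 genes with limma 95% confidence intervals for hyperoxia against normoxia in each genotype and for Fgf10+/- against wild type in each oxygen condition. Every interval spans 0, and those that involve the 2 Fgf10+/- hyperoxia samples are the wider ones.

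The 5 members with a mean over 7 did not vary alike from array to array. Among them the most similar pair was Scnn1a and Atp1b1 (Pearson r = 0.90 over 16 arrays), followed by Slc12a2 and Nedd4l (0.86) and Scnn1b and Nedd4l (0.85). Of these 5, Scnn1a and Slc12a2 were the least alike (0.43), and Scnn1a with Scnn1b gave 0.68. These values describe arrays that share their groups and their mix of cells. So the alpha subunit varied more like the pump subunit than like its own partner subunit Scnn1b.

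The difference between 2 genes on the same array was then taken for the 5 members with a mean over 7. It sets genes against each other within a sample, and a shift that all of a sample's epithelial genes share drops out of it. Scnn1a minus Scnn1b was 2.70, 2.63, 3.84 and 2.76 in wild-type normoxia and 2.02 to 2.49 in wild-type hyperoxia (mean 2.26 ± 0.17). It was 3.37, 3.38, 2.95 and 3.32 in Fgf10+/- normoxia and 2.30 and 2.07 in Fgf10+/- hyperoxia. Every hyperoxia sample lay below every normoxia sample, in both genotypes. Of the 10 pairs of these 5 members this was the only 1 to separate by oxygen in both genotypes in 1 direction. In either direction 1 pair separated by oxygen in wild type and 6 in Fgf10+/-. By genotype 1 pair separated in normoxia and 4 in hyperoxia. The pairs share genes, and the share over all pairs of genes was not computed, so these counts show no excess for the members. Among single genes, 7.16% separated by oxygen in wild type and 25.9% in Fgf10+/-, where hyperoxia has 2 samples. By genotype, 3.46% of single genes separated in normoxia and 6.99% in hyperoxia. Of 5981 genes with a mean over 7 set against Scnn1b in the same way, 1.35% were lower without overlap in wild type, 16.2% in Fgf10+/- and 1.2% in both. Taken the other way, Scnn1a minus the gene was lower without overlap in both genotypes for 2.86% of genes.

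**Figure D3:**
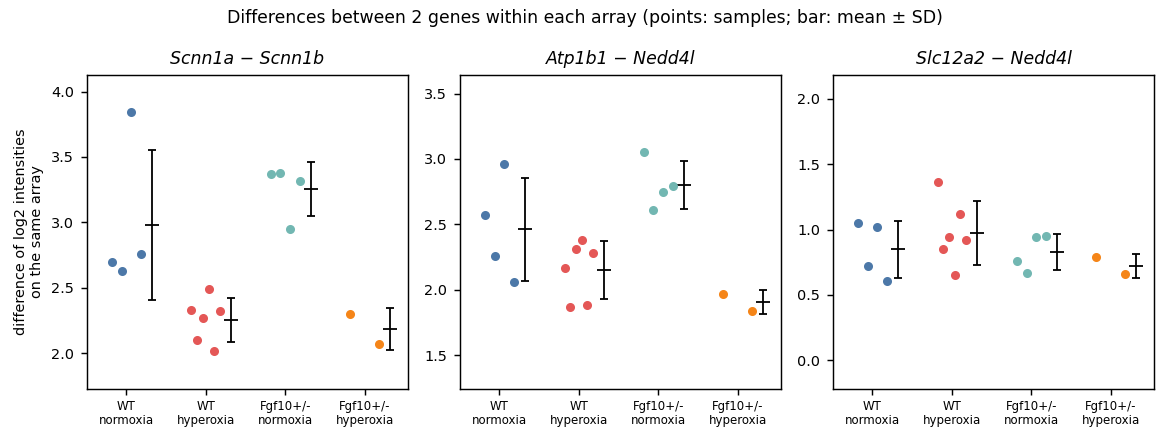
The difference of log2 intensities of 2 genes on the same array (vertical axis) by group; points are samples and the bar with whiskers is the mean ± SD. Scnn1a minus Scnn1b runs from 2.02 to 2.49 in hyperoxia and from 2.63 to 3.84 in normoxia, while Slc12a2 minus Nedd4l overlaps between all groups.

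In the same limma fit of these within-array differences, Scnn1a relative to Scnn1b changed by -0.73 in wild type (SE 0.29, interval -1.34 to -0.12, adjusted p = 0.364) and by -1.07 in Fgf10+/- (SE 0.39, interval -1.89 to -0.25, adjusted p = 0.222). Neither passed; of the genes compared, 1.71% and 0.836% did. Averaged over both genotypes the change was -0.90 (SE 0.25, interval -1.41 to -0.39, adjusted p = 0.0274), which is 1.86-fold, and 7.07% of genes passed there. The pair and the averaged contrast were chosen after the data had been seen. The averaged call was lost on leaving out any of Fgf10+/- normoxia replicate 1, 2 or 4, Fgf10+/- hyperoxia replicate 1 or 2, wild-type normoxia replicate 3 or wild-type hyperoxia replicate 2, with values from -0.76 to -0.96 and adjusted p from 0.0522 to 0.118. It was also lost without the 4 libraries highest in thymocyte markers (-0.78, adjusted p = 0.728).

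Over the averaged contrast Scnn1a was also lower relative to Slc12a2 (-0.86, SE 0.22, limma adjusted p = 0.0143) and to Nedd4l (-0.85, SE 0.21, adjusted p = 0.0108). Atp1b1 was lower relative to Slc12a2 (-0.62, SE 0.20, adjusted p = 0.0454), though not when Slc12a2 was tested relative to Atp1b1 (0.62, adjusted p = 0.119). Of all genes compared, 12.6% passed against Slc12a2, 11.1% against Nedd4l, 8.14% against Atp1b1 and 17.2% against Scnn1a. Scnn1a relative to Atp1b1 differed by -0.24 (interval -0.74 to 0.26), which did not pass. Over the 20 ordered pairs, 7 passed in the averaged contrast and 0 in each of the 5 comparisons of the design, where up to 3.98% of genes passed in wild-type hyperoxia and up to 3.03% in Fgf10+/- hyperoxia, depending on the reference gene. Each pair counts in both orders among the 20. The calls of Scnn1a against Scnn1b, Slc12a2 and Nedd4l share the same Scnn1a values. These reference genes also varied together (Pearson r = 0.64 to 0.86), so the calls are not separate findings. Alternative analyses of such differences were run only for Scnn1a relative to Scnn1b.

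The smooth muscle and pericyte mean and the club and secretory mean overlapped between the oxygen groups in wild type. They did not overlap in Fgf10+/-, where hyperoxia has 2 samples. These means were not tested. The mean of the 7 smooth muscle and pericyte markers was 9.26, 6.81, 6.68 and 6.37 in wild-type normoxia and 7.39 to 8.58 in wild-type hyperoxia; in Fgf10+/- it was 6.14 to 6.98 in normoxia and 7.71 to 7.81 in hyperoxia. The 7 club and secretory markers averaged 11.58 to 13.63 and 9.61 to 13.61 in the wild-type groups, and 13.04 to 13.94 and 10.53 to 12.20 in the Fgf10+/- groups. For hyperoxia in wild type and for hyperoxia in Fgf10+/-, 0 markers of either list passed limma at an adjusted p under 0.05. Wild-type normoxia replicate 1, the sample with the lowest Scnn1a of its group, was the highest of all 16 in the muscle markers and the lowest of the normoxia samples in the club markers.

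Of the 7 smooth muscle and pericyte markers, 2 rose and 0 fell in the averaged hyperoxia contrast, and of the 7 club and secretory markers 0 rose and 2 fell, where 11.1% of all genes and 19.5% of those with a mean over 7 passed. Of 10 AT2 markers 0 passed, and their mean ran from 11.06 to 12.38 over the samples. Of their changes 8 were negative (median -0.30), and 2 markers had an unadjusted limma p under 0.05, beside 25.8% of all genes. Of 8 endothelial markers 3 rose, of 7 fibroblast markers 1 rose, of 7 macrophage markers 1 rose, of 6 ionocyte markers 1 fell and of 10 thymocyte markers 2 fell, while 0 of 9 alveolar type I, 0 of 8 ciliated, 0 of 5 basal and 0 of 5 measured erythroid markers passed. In lists of this size, 1 gene past the threshold is near that background. The thymocyte mean was 6.43 in wild-type normoxia replicate 4, 5.74, 6.38 and 5.54 in Fgf10+/- normoxia replicates 1, 2 and 4, and 4.01 to 4.75 in the other samples.

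**Figure D4:**
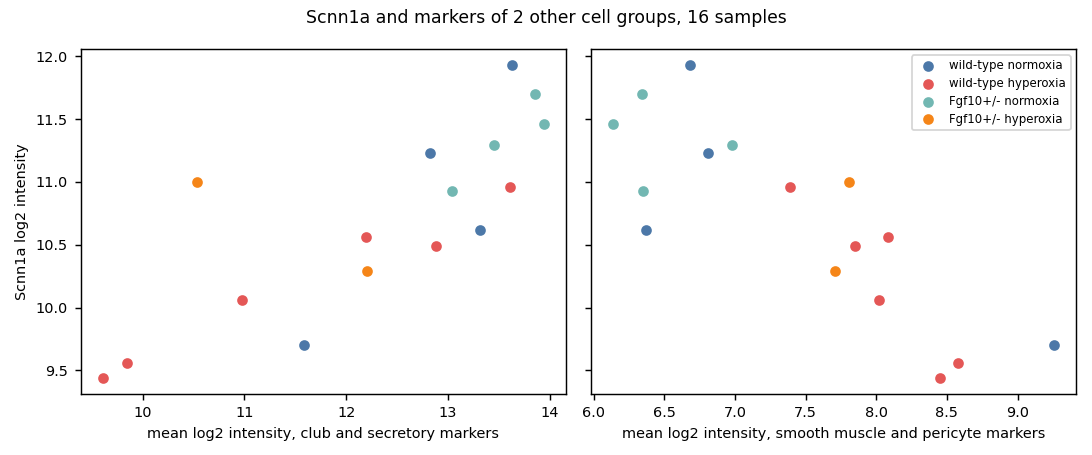
The Scnn1a log2 intensity (vertical axis) of each of the 16 samples against the mean log2 intensity of the club and secretory markers (left) and of the smooth muscle and pericyte markers (right); colours are the 4 groups. The 3 samples with the highest smooth muscle and pericyte means, among them wild-type normoxia replicate 1 at 9.26, have the 3 lowest Scnn1a values, while Fgf10+/- hyperoxia replicate 1 has a low club and secretory mean (10.53) with a Scnn1a of 11.00.

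With the smooth muscle and pericyte mean as a covariate the averaged Scnn1a difference went from -0.69 to -0.05, and with the club and secretory mean to -0.02. Without wild-type normoxia replicate 1 it was -0.89 (limma adjusted p = 0.0515), and the wild-type difference was -1.08 (adjusted p = 0.116). Scnn1a relative to Scnn1b kept its averaged call with either covariate (-0.77, adjusted p = 0.0276, and -0.74, adjusted p = 0.0408), but with the thymocyte mean as a covariate it was -0.92 (adjusted p = 0.203). Whether these cells account for the Scnn1a levels was not tested.

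Around the 8 members, 80 genes of the same pathway were listed by role, and 72 were measured. For hyperoxia in wild type 0 rose and 1 fell, for hyperoxia in Fgf10+/- 0 rose and 2 fell, and for both genotype contrasts and the interaction 0 passed (limma, with 10, 2 and 5 genes at an unadjusted p under 0.05, or 13.9%, 2.78% and 6.94%, beside 6.03%, 4.37% and 4.11% of all genes). The median change of the 72 was -0.24 in wild type and -0.14 in Fgf10+/-. The shares past the threshold were 1.39% and 2.78%, beside 3.13% and 2.45% of all genes. In the averaged hyperoxia contrast 3 rose and 6 fell, which is 12.5% and near the 11.1% of all genes, and 51 of 72 values were below 0 (median -0.20, beside -0.06 over all genes).

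**Figure D5:**
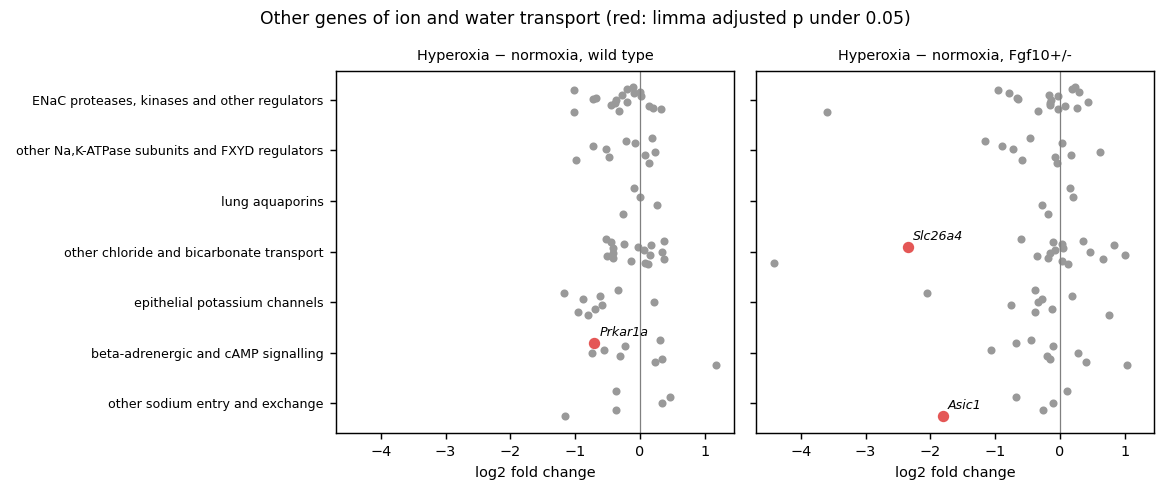
The log2 fold change of each of the 72 measured pathway genes (points) for hyperoxia against normoxia in wild type (left) and in Fgf10+/- (right), by role; red points passed limma at an adjusted p under 0.05. Prkar1a at -0.70 is the red point in wild type, and Slc26a4 at -2.35 and Asic1 at -1.81 are those in Fgf10+/-.

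Prkar1a, a regulatory subunit of protein kinase A that holds the kinase inactive without cAMP, fell in wild-type hyperoxia. It read 10.81, 10.62, 10.22 and 10.65 in wild-type normoxia and 9.70 to 10.00 in wild-type hyperoxia; in Fgf10+/- it read 10.42 to 10.83 in normoxia and 9.78 and 10.11 in hyperoxia. No hyperoxia sample reached a normoxia sample. The change was -0.70 in wild type (SE 0.16, limma adjusted p = 0.0254) and -0.68 in Fgf10+/- (SE 0.22, adjusted p = 0.121), and averaged it was -0.69 (adjusted p = 0.00412). The wild-type call was lost without any 1 of wild-type normoxia replicates 1, 2 and 4 or wild-type hyperoxia replicates 1, 2 and 5 (-0.62 to -0.69, adjusted p 0.0507 to 0.0852). In all it held in 16 of 29 alternatives. Among the losses were the mean of all features of the gene (-0.50, adjusted p = 0.0821) and arrays centred on their median (-0.59, adjusted p = 0.054). With only the compared groups in the fit it was lost as well (-0.70, adjusted p = 0.0521). The losses also include the analysis without the 4 libraries highest in thymocyte markers (-0.68, adjusted p = 0.111). In that analysis the averaged change was -0.57 and its call was lost too (adjusted p = 0.134).

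Slc26a4, the anion exchanger pendrin, fell in Fgf10+/- hyperoxia. It read 6.31, 5.10, 6.21 and 7.86 in Fgf10+/- normoxia and 4.18 and 3.86 in hyperoxia, a change of -2.35 (SE 0.49, limma adjusted p = 0.0208). In wild type it was dim in both conditions, from 4.36 to 5.39, with a difference of -0.03. The interaction of -2.32 (SE 0.61) had an unadjusted p of 0.00161 and an adjusted p of 0.988, so the genotypes were not shown to differ. The Fgf10+/- call was lost without either of the hyperoxia replicates (-2.51 and -2.19, adjusted p = 0.109 and 0.152), and on dropping the 4 libraries richest in thymocyte markers (-2.19, adjusted p = 0.0824). With the thymocyte, smooth muscle or club mean as a covariate it was lost as well (-2.28 to -2.57, adjusted p 0.0674 to 0.0842).

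Asic1, an acid-sensing sodium channel of the ENaC family, was dim and read lower in hyperoxia in both genotypes. It ran from 4.72 to 5.46 in wild-type normoxia and 3.15 to 4.53 in wild-type hyperoxia, and from 4.44 to 5.19 in Fgf10+/- normoxia with 2.51 and 3.60 in hyperoxia. The groups did not overlap in either genotype. The fitted difference passed in Fgf10+/- (-1.81, limma SE 0.42, adjusted p = 0.0314) and in the averaged contrast (-1.48, adjusted p = 0.0018), and in wild type it was -1.15 (SE 0.31, adjusted p = 0.0531). Both Fgf10+/- hyperoxia values lie below 3.62, the fifth percentile of gene means, and whether the feature measured any transcript there is not known, so no fold is given. The Fgf10+/- call was lost without Fgf10+/- normoxia replicate 2, 3 or 4 or either Fgf10+/- hyperoxia replicate (-1.26 to -2.35, adjusted p 0.053 to 0.32). It was also lost without the 4 libraries highest in thymocyte markers (-2.06, adjusted p = 0.315), with each of the 3 marker means as a covariate (adjusted p 0.0781 to 0.104) and with only the compared groups in the fit (adjusted p = 0.0671).

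The averaged contrast added genes in several roles. Among ENaC regulators, Usp2, a deubiquitinase that opposes Nedd4-family ligases, fell by 0.98 (SE 0.23, limma adjusted p = 0.0128), the 1 of 18 measured that passed. With the club mean as a covariate it was -0.47 (adjusted p = 0.235). Among the pump's relatives 1 of 10 passed: Fxyd6, a small modulator of the Na,K-ATPase, fell by 0.69 (SE 0.21, adjusted p = 0.0446). This call was lost in 19 of 28 alternative analyses. Most of the Fxyd6 change came from Fgf10+/-, where hyperoxia has 2 samples. It was -0.22 in wild type and -1.16 in Fgf10+/- (limma adjusted p = 0.697 and 0.0854). Among potassium channels Kcnn4, a calcium-activated channel, fell by 1.61 (SE 0.44, adjusted p = 0.0275), 1 of 9. It was highest in libraries rich in thymocyte markers (7.75 in Fgf10+/- normoxia replicate 2 and 7.72 in wild-type normoxia replicate 4). Without the 4 libraries highest in those markers it was -0.67 (adjusted p = 0.443), and with the thymocyte mean as a covariate -0.43 (adjusted p = 0.551). Of 9 cAMP signalling genes Adcy6, an adenylyl cyclase, rose by 1.10 (SE 0.32, adjusted p = 0.0345) while Prkar1a fell. Adcy6 was 0.40 with the club mean (adjusted p = 0.498) and 0.75 with the smooth muscle mean as a covariate (adjusted p = 0.303). Of 17 chloride and bicarbonate transport genes, Clcn4 rose by 0.52 (SE 0.13, adjusted p = 0.0167), Gopc, which binds Cftr in the Golgi, rose by 0.58 (SE 0.16, adjusted p = 0.0307), and Slc26a4 fell by 1.19 (SE 0.31). The Gopc change also came mostly from Fgf10+/-, with 0.16 in wild type and 1.01 in Fgf10+/- (limma adjusted p = 0.727 and 0.0544). With the thymocyte mean as a covariate the averaged Gopc change was 0.32 (adjusted p = 0.373). Of 5 genes of other sodium entry only Asic1 passed. Without the 4 libraries highest in thymocyte markers the averaged calls of Usp2, Adcy6, Fxyd6, Clcn4 and Gopc were lost (adjusted p 0.144 to 0.35). With each of the 3 marker means as a covariate those of Usp2, Kcnn4, Adcy6, Clcn4, Gopc and Slc26a4 were lost too, and the part of these cells in the results was not tested.

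The remaining bright genes of these roles did not pass in the fit over all genes. Nedd4, the ligase related to Nedd4l, read 10.50 ± 0.41 in wild-type normoxia and 10.71 ± 0.11 in wild-type hyperoxia (SD), a difference of 0.21 (interval -0.22 to 0.63). Sgk1, the kinase that keeps Nedd4l off ENaC, differed by -0.37 in wild type (interval -0.82 to 0.09). Atp1b3, another beta subunit of the pump, differed by -0.47 in wild type (interval -0.81 to -0.13, limma adjusted p = 0.127), and Fxyd1 by 0.08. In the alternative limited to genes with a mean over 6, the wild-type Atp1b3 difference passed (-0.47, limma adjusted p = 0.0297). The water channels Aqp1 and Aqp5 differed by -0.26 and -0.09 in wild type and by -0.19 and 0.16 in Fgf10+/-, and 0 of the 4 aquaporins passed. The potassium channel genes Kcne2 and Kcnq1 differed by -0.95 (adjusted p = 0.131) and -0.34 in wild type.

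For each member with a mean over 7, the genes with the most similar values over the 16 arrays were picked from 5778 genes. Closest to Scnn1a were Rabgap1l (r = 0.97), Inava (0.97) and Wfdc1 (0.95), and closest to Scnn1b were Tmprss2 (0.96), Cxadr (0.95) and Ripk4 (0.93). Atp1b1 was nearest to Tmc4 (0.95), Foxq1 (0.94) and Hipk3 (0.94). Slc12a2 was nearest to Fat1, Shtn1 and Cd9 (0.91 each), and Nedd4l to Atp11a (0.93), Pkp2 (0.92) and Naxd (0.91). No 2 members had a gene in common among their 3 nearest. These are descriptions of arrays that share groups and cell mixture.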

How the data were processed

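The authors deposited a table of normalized log2 values for 16 arrays, and the log2 scale was inferred from the values. The sorted values of the 16 arrays differ by at most 0.2, so the table already shares 1 distribution. The authors' software, background correction and log base, and any slide or detection call, were not given in the sources used here.

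Of 62976 features, 65 with a missing value were left out. Of all features, 31465 had 1 gene symbol, 0 several and 31511 none. Symbols were updated through RefSeq tables of GRCm38.p6 (29036 by accession, 2075 by symbol, 349 by synonym, 5 kept as listed). The feature with the highest mean stood for each of 20725 genes. Promoter sequences were read for 5 of the 8 members, and the others are not used here.

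limma 3.58.1 in R 4.3.3 (lmFit, eBayes) was run with 4 group means on 16 samples, and Benjamini-Hochberg adjustment covered all genes, with a threshold of 0.05. For within-array differences each member with a mean over 7 was subtracted from every gene with a mean over 7 before the same fit.

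The members and lists were chosen with earlier results of these data known. Text names every member and, per pathway list and comparison, up to 4 genes past the threshold by smallest p, or else the 2 brightest. For likeness it names the 3 genes with the highest Pearson r, without predicted or clone-named genes. Alternatives covered centring, renormalization, dim-feature filter, feature choice, array weights, a replicate block, marker covariates and leaving out each sample. Precision is limited by the number of arrays.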

Additional observations from a re-analysis of the deposited data

Results flagged for a closer look

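In groups of 4 to 10 samples, the highest or lowest sample was set against the others by Dixon's test, for the members, the named pathway genes and the Scnn1a minus Scnn1b difference. Of 66 groups tested, 6 held a sample apart, and chance gives about 1 in 20 groups. Slc12a2 read 9.77 in wild-type hyperoxia replicate 5, below 10.15 to 10.37 in the other samples of its group. Nedd4 read 9.90 in wild-type normoxia replicate 4, against 10.65 to 10.78. Fxyd1 read 8.36 in Fgf10+/- normoxia replicate 3, against 9.21 to 9.27. Slc26a4 read 4.53 in wild-type normoxia replicate 2, against 4.81 to 4.84, a small gap in a dim gene. Scnn1a minus Scnn1b was 3.84 in wild-type normoxia replicate 3, above 2.63 to 2.76, and 2.95 in Fgf10+/- normoxia replicate 3, below 3.32 to 3.38. Both of these samples still lay above every hyperoxia sample of their genotype in that difference.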

How the results depend on the processing

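The count of members past the threshold was 0 under every alternative run. Over the 5 comparisons this covers 1137 member values, of which 0 passed (smallest limma adjusted p 0.116), and 84 changed sign without being called. The averaged contrasts, added after the data had been seen, gave 442 member values, 0 past the threshold and a smallest adjusted p of 0.0515. The number of all genes called moved far more: from 649 to between 216 and 1172 for hyperoxia in wild type, and from 507 to between 14 and 792 in Fgf10+/-. The lowest Fgf10+/- count, 14, came without the 4 libraries highest in thymocyte markers; for the averaged contrast that alternative gave 467 in place of 2302. Scnn1a relative to Scnn1b passed in 13 of 23 alternatives of the averaged contrast, and with array weights it also passed in wild type (-1.11, adjusted p = 0.00765) and in Fgf10+/- (-1.13, adjusted p = 0.0115). Unweighted, the wild-type change was -0.73. The weighted size needs extra weight on wild-type normoxia replicate 3 (3.84), since the rest of its group read 2.63 to 2.76 and wild-type hyperoxia 2.02 to 2.49. The averaged Asic1 call held in 27 of 27 alternatives, that of Prkar1a in 26 of 28, Slc26a4 in 21 of 27, Usp2 and Clcn4 in 22 of 28 each, Kcnn4 in 20 of 27, Gopc in 17 of 28 and Adcy6 in 14 of 28. Asic1, Slc26a4 and Kcnn4 were too dim to enter the alternative limited to genes with a mean over 6, so their calls were not tried there. The causes were not tested.

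The labels do not say that a replicate number marks a shared litter or day, and same-numbered samples correlated by only -0.16 to 0.24 in their deviations from group means, so the numbers were not taken as pairs. With the replicate block the members called stayed at 0 in all comparisons and the genes called for hyperoxia were 216 in wild type, 103 in Fgf10+/- and 1380 averaged. Scnn1a relative to Scnn1b then missed the threshold (-0.83, adjusted p = 0.0918), as did Prkar1a in wild type (-0.71, adjusted p = 0.124) and Slc26a4 in Fgf10+/- (-2.12, adjusted p = 0.0729). Best correlation with their own number was seen for only some samples.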
